A study of Homo sapiens with 3 samples.

Results

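A group of 10 genes of the tumour necrosis factor (TNF) superfamily was followed in MM.1S and HS-5 cells: 4 ligands (LTB, TNFSF10, TNFSF13 and TNFSF13B) and 6 receptors (TNFRSF13B, TNFRSF1A, TNFRSF1B, TNFRSF12A, TNFRSF10B and TNFRSF11B). They were chosen by name, and all 10 were found among the 43913 genes listed in the 3 libraries. Transcripts were counted by Drop-seq, in which single cells meet barcoded beads in droplets and each RNA molecule is counted once by its unique molecular identifier (UMI). The 3 libraries, 1 for each condition and none replicated, were a monoculture of the established multiple myeloma line MM.1S, a monoculture of the established bone marrow stromal line HS-5, and both lines after 4 h together. None was treated. No source used here says whether these cells carried the fluorescent p65 knock-in that the study made in both lines.

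Cells of the coculture were assigned to a line by the share of HS-5-specific UMIs among line-specific UMIs, with all TNF superfamily genes left out of that share. This gave 1641 MM.1S and 2107 HS-5 cells in coculture, beside 3947 MM.1S and 3732 HS-5 cells in monoculture, and 108 mixed cells were left out. UMIs were summed over each of these 4 populations and scaled to counts per 1000000 UMIs (CPM). The sums ranged from 1327502 UMIs in MM.1S cells in coculture to 10433017 in MM.1S monoculture, so that 3 UMIs are worth 2.26 and 0.288 CPM there. All intervals are exact, at 95%, and cover counting error only. With 1 library per condition no test was possible, and library preparation cannot be told apart from line or coculture. MM.1S cells in coculture were shallow, with a median of 669 UMIs per cell against 2201 in monoculture, while HS-5 cells had 957 and 971.5. The median log2 ratio of all genes in MM.1S cells, coculture over monoculture, was 0.25, and in HS-5 cells it was -0.03. Libraries shared 39 to 76 barcodes pairwise, and no ratio of the 10 genes left its interval without them.

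Of the plasma cell markers, CD38, IRF4, MZB1 and JCHAIN were high in MM.1S and at most 30.2 CPM in HS-5, but SDC1 had 135 CPM in HS-5 monoculture against 38.1 CPM in MM.1S, and SLAMF7 stayed at or under 3.01 CPM everywhere. Of the stromal markers, COL1A1, COL1A2, COL6A1 and SPARC were high in HS-5 and at most 12.1 CPM in MM.1S. FN1 went against its list, with 810 CPM in MM.1S and 252 CPM in HS-5 monoculture, and TAGLN, LUM, VCAM1 and COL3A1 were at or under 4.88 CPM in all populations. Macrophage, T cell and endothelial marker lists summed to at most 15.1 CPM each.

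TNF superfamily ligands are mostly trimeric membrane proteins, some of them shed, and their receptors fall into those with a death domain, those that bind TRAF adaptors and decoys that bind a ligand without passing on a full signal. TNFSF13B (BAFF) and TNFSF13 (APRIL) are survival factors of B cells and plasma cells and are read by TNFRSF13B (TACI) and TNFRSF17 (BCMA). TNFRSF13C (BAFF receptor) reads TNFSF13B only. LTB forms lymphotoxin heterotrimers with LTA that engage LTBR, and TNFSF10 (TRAIL) engages the death receptors TNFRSF10A and TNFRSF10B and the decoys TNFRSF10C, TNFRSF10D and TNFRSF11B (osteoprotegerin). TNFRSF1A and TNFRSF1B are the TNF receptors and TNFRSF12A (Fn14) is the receptor of TNFSF12. In the bone marrow, this family is known for plasma cell survival, inflammation and control of osteoclasts.

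For 7 of the 10 genes, RefSeq promoters (GRCh38.p14) were at hand, and the 250 bases before each start were searched on both strands for GAAA, any 2 bases and GAAA again, the core of the interferon-stimulated response element (ISRE), and for GGG, any 2 bases and TTTCC, a form of the NF-κB motif. The ISRE core occurs in 3.02% and the NF-κB form in 1.73% of 35116 promoters of this length. Windows of all genes of the group with a match are shown, whatever their levels. In MM.1S monoculture cells high for interferon response genes, TNFSF10 and TNFSF13B were higher than in the other cells, TNFSF13B from 6 UMIs. These levels are described further on, and the part of the matches in them was not tested. TNFRSF1B, also with a match, was not higher in the high cells. LTB is known as an NF-κB target. The first 3 windows hold the ISRE core, read along the gene in TNFSF13B and as its reverse complement in TNFSF10 and TNFRSF1B, and the last one holds the NF-κB form as its reverse complement. Capitals mark the match, and each window runs 5′ to 3′ along the gene.
TNFSF10: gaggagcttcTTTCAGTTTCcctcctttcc
TNFSF13B: tacaaaaactGAAAGTGAAAtgaggaagac
TNFRSF1B: tggcccgctggggcgcgggcTTTCGCTTTC
LTB: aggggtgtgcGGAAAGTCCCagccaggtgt
The TNFSF10 window lies at chr3:172523598-172523627 on the minus strand, with the match starting 187 bases before the start. In TNFSF13B (chr13:108269637-108269666, plus strand) the match starts 71 bases before the second of 2 listed starts, inside an annotated exon, and the window of the first start holds neither motif. The TNFRSF1B match (chr1:12166961-12166990, plus strand) ends at the base before the start. The LTB match (chr6:31582492-31582521, minus strand) starts 86 bases before the start, in an annotated exon. Promoters of TNFRSF13B, TNFSF13 and TNFRSF1A hold neither motif in this window. These matches are letters in a sequence and do not show that a factor was bound.

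Of the ligands, LTB and TNFSF10 transcripts were found in MM.1S cells and hardly in HS-5 cells, while the 2 plasma cell survival factors were close to the counting limit in both lines. LTB (chromosome 6, 31580525 to 31582522, minus strand, GRCh38, GENCODE release 29) had 56.4 CPM in MM.1S monoculture (51.9 to 61.1, 588 UMIs), 16.6 CPM in MM.1S cells in coculture (10.4 to 25.1, 22 UMIs), no UMI in HS-5 monoculture and 0.804 CPM in HS-5 in coculture (2 UMIs, both in 1 cell). In monoculture HS-5 was thus at least 115-fold lower than MM.1S, with the zero set at 3 UMIs of that library, and within the coculture 20.6-fold lower (5.06 to 181). TNFSF10 (chromosome 3, 172505508 to 172523507, minus strand) had 24.6 CPM in MM.1S monoculture (21.7 to 27.8), 17.3 CPM in MM.1S in coculture (10.98 to 26.0), 0.977 CPM in HS-5 monoculture (6 UMIs) and 0.804 CPM in HS-5 in coculture (2 UMIs). HS-5 was 25.2-fold lower than MM.1S in monoculture (11.4 to 69.4) and 21.5-fold lower within the coculture (5.32 to 188).

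TNFSF13B (chromosome 13, 108251240 to 108308484, plus strand) had 17, 3, 13 and 6 UMIs in MM.1S monoculture, MM.1S coculture, HS-5 monoculture and HS-5 coculture, which is 1.63, 2.26, 2.12 and 2.41 CPM. All 4 intervals overlap, and HS-5 over MM.1S in monoculture was 1.30 (0.580 to 2.84). TNFSF13 (chromosome 17, 7558292 to 7561608, plus strand) had 12 UMIs in MM.1S monoculture, 1 in HS-5 monoculture and none in the coculture, where 3 UMIs would be 2.26 CPM in MM.1S and 1.21 CPM in HS-5. HS-5 was 7.06-fold lower than MM.1S in TNFSF13 in monoculture (1.05 to 302), and for TNFSF13B no difference between the lines was detectable at this depth. TNF itself had 1 UMI and TNFSF12 6 UMIs, all in 1 cell, in MM.1S monoculture.

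Receptors separated the lines in both directions. TNFRSF13B, the BAFF and APRIL receptor TACI (chromosome 17, 16929816 to 16972118, minus strand), had 117 CPM in MM.1S monoculture (110.4 to 124) and 160.5 CPM in MM.1S in coculture (139.6 to 184). In HS-5 it had 0.163 CPM in monoculture (1 UMI, under the 0.488 CPM of 3 UMIs) and 4.02 CPM in coculture (1.93 to 7.40, 10 UMIs). MM.1S over HS-5 was 718-fold in monoculture (129 to 28369) and 39.9-fold within the coculture (21.3 to 84.4). Of the 10 UMIs in HS-5 cells in coculture, 6 came from 1 cell of 1975 UMIs, and without that cell the level was 1.61 CPM. The level expected from free RNA of MM.1S cells was 1.31 CPM. MM.1S also held another B-lineage receptor, TNFRSF17, with 111 CPM in monoculture and 82.1 CPM in coculture against 0.488 and 0.804 CPM in HS-5. Its locus overlaps NPIPB2, and whether reads were counted by strand is not given in the sources used here. TNFRSF10B overlaps RHOBTB2, which had 34 and 9 UMIs in MM.1S monoculture and coculture beside 40 and 4 of TNFRSF10B. LTBR overlaps SCNN1A (16 and 0 UMIs there) and TNFRSF12A overlaps CLDN6 (8 and 3). TNFRSF13C stayed at or under 3.74 CPM in all populations.

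TNFRSF1B, the TNF receptor that binds TRAF2 and lacks a death domain (chromosome 1, 12167003 to 12209228, plus strand), had 39.2 CPM in MM.1S monoculture (35.5 to 43.2) and 74.6 CPM in MM.1S in coculture (60.6 to 90.8), against 9.28 CPM (7.03 to 12.0) and 10.5 CPM (6.83 to 15.3) in HS-5. MM.1S was 4.22-fold higher in monoculture (3.20 to 5.68) and 7.13-fold higher within the coculture (4.59 to 11.4). TNFRSF1A, the TNF receptor with a death domain (chromosome 12, 6328757 to 6342114, minus strand), was placed the other way in monoculture, with 67.6 CPM in HS-5 (61.2 to 74.4) and 6.13 CPM in MM.1S (4.72 to 7.83), an 11.01-fold difference (8.45 to 14.6). In coculture it had 55.9 CPM in HS-5 (47.0 to 66.0) and 38.4 CPM in MM.1S (28.6 to 50.5), a ratio of 1.46 (1.05 to 2.05).

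The remaining 3 receptors were higher in HS-5. TNFRSF12A, the small TRAF-binding receptor Fn14 (chromosome 16, 3018445 to 3022383, plus strand), had 151 CPM in HS-5 monoculture (142 to 161) and 117 CPM in HS-5 in coculture (104 to 131), and 28.4 CPM (25.2 to 31.8) and 16.6 CPM (10.4 to 25.1) in MM.1S. HS-5 over MM.1S was 5.33 in monoculture (4.67 to 6.10) and 7.06 within the coculture (4.58 to 11.4). TNFRSF10B, the TRAIL death receptor DR5 on chromosome 8, had 21.8 CPM in HS-5 monoculture, 22.5 CPM in HS-5 in coculture, 3.83 CPM in MM.1S monoculture and 3.01 CPM in MM.1S in coculture (4 UMIs), a ratio of 5.69 (3.97 to 8.32) and 7.48 (2.76 to 28.4). TNFRSF11B, the soluble decoy of TRAIL and RANKL, had 18.2 CPM in HS-5 monoculture, 21.3 CPM in HS-5 in coculture, 0.671 CPM in MM.1S monoculture (7 UMIs) and 1.51 CPM in MM.1S in coculture (2 UMIs). Its ratio was 27.2 (12.8 to 69.1) and 14.2 (3.73 to 120). The plot of levels by population shows these patterns together.

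**Figure D1:**
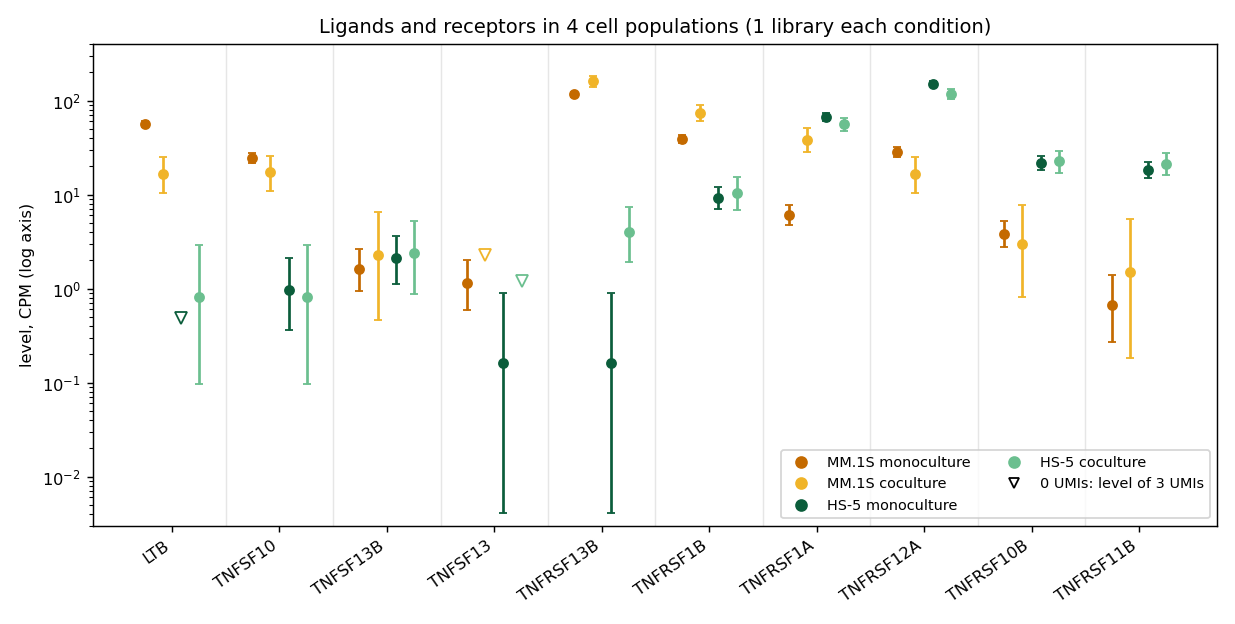
Level of each of the 10 genes in CPM on a log axis, in MM.1S and HS-5 cells of the monocultures and of the coculture. Points are summed UMIs of 1 population with exact 95% Poisson intervals, and open triangles mark 0 UMIs, drawn at the level of 3 UMIs. LTB, TNFSF10, TNFRSF13B and TNFRSF1B lie higher in MM.1S, TNFRSF12A, TNFRSF10B and TNFRSF11B higher in HS-5, and TNFRSF1A lies at 6.13 CPM in MM.1S monoculture and 38.4 CPM in MM.1S in coculture.

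Set against all genes, a 2-fold difference between the lines was common. Counting genes whose mean over the pair compared was 10 CPM or more, 39.0% were 2-fold or more higher in HS-5 and 15.8% lower in monoculture, and 26.9% and 16.3% within the coculture. Of the 10 genes, 7 passed that minimum in monoculture, 3 of them higher in HS-5 and 4 lower, and 6 passed within the coculture, 3 higher and 2 lower. A gene near 0 in 1 line passes the minimum only where it is high in the other, so these counts do not set the family apart.

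Other members of the family place both ends of several ligand and receptor pairs. LTBR, the receptor of LTB and LTA heterotrimers, had 90.4 CPM in HS-5 monoculture (83.0 to 98.2) and 0.288 CPM in MM.1S monoculture (3 UMIs), so LTB and LTBR transcripts were held by opposite lines. LTA, the partner of LTB in its heterotrimers, was at or under 0.753 CPM in all populations. For TRAIL, the death receptor TNFRSF10A had 42.2, 73.1, 61.5 and 40.2 CPM in MM.1S monoculture, MM.1S coculture, HS-5 monoculture and HS-5 coculture, while the decoy TNFRSF10D had 2.01, 4.52, 72.3 and 71.6 CPM. Both decoys with at least 10 CPM, TNFRSF10D and TNFRSF11B, were thus higher in HS-5, and the ligand was higher in MM.1S.

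Of 18 ligands listed, 3 reached 10 CPM in any population, the third being CD70, the ligand of CD27, with 78.0 and 76.1 CPM in MM.1S and 34.4 and 38.2 CPM in HS-5. Of 29 receptors listed, 18 did, and of all 43913 genes 10546 did. Beyond those described, TNFRSF18 (GITR) had 126 CPM in MM.1S monoculture and no UMI in HS-5 monoculture, and TNFRSF25 had 25.2 and 12.5 CPM. TNFRSF21 (DR6) had 39.7 CPM in HS-5 and 3.74 CPM in MM.1S monoculture, and CD40 had 17.6 and 1.44 CPM. TNFRSF10A was 1.46-fold higher in HS-5 in monoculture (1.27 to 1.68) and 1.82-fold lower within the coculture (1.36 to 2.43). The levels of FAS, RELT, TNFRSF14 and TNFRSF8 were between 2.82 and 17.3 CPM in all 4 populations. In monoculture, 16 ligands and receptors had a mean of 10 CPM or more, 6 of them 2-fold or more higher in HS-5 and 8 lower. Over all genes, 39.0% were higher and 15.8% lower. The median log2 ratio was -0.70 beside 0.59 over all genes. Within the coculture there were 7 higher and 6 lower of 17, beside 26.9% and 16.3% of all genes, with a median of -0.75 beside 0.18. Here too, a gene near 0 in 1 line passes the minimum only where it is high in the other.

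**Figure D2:**
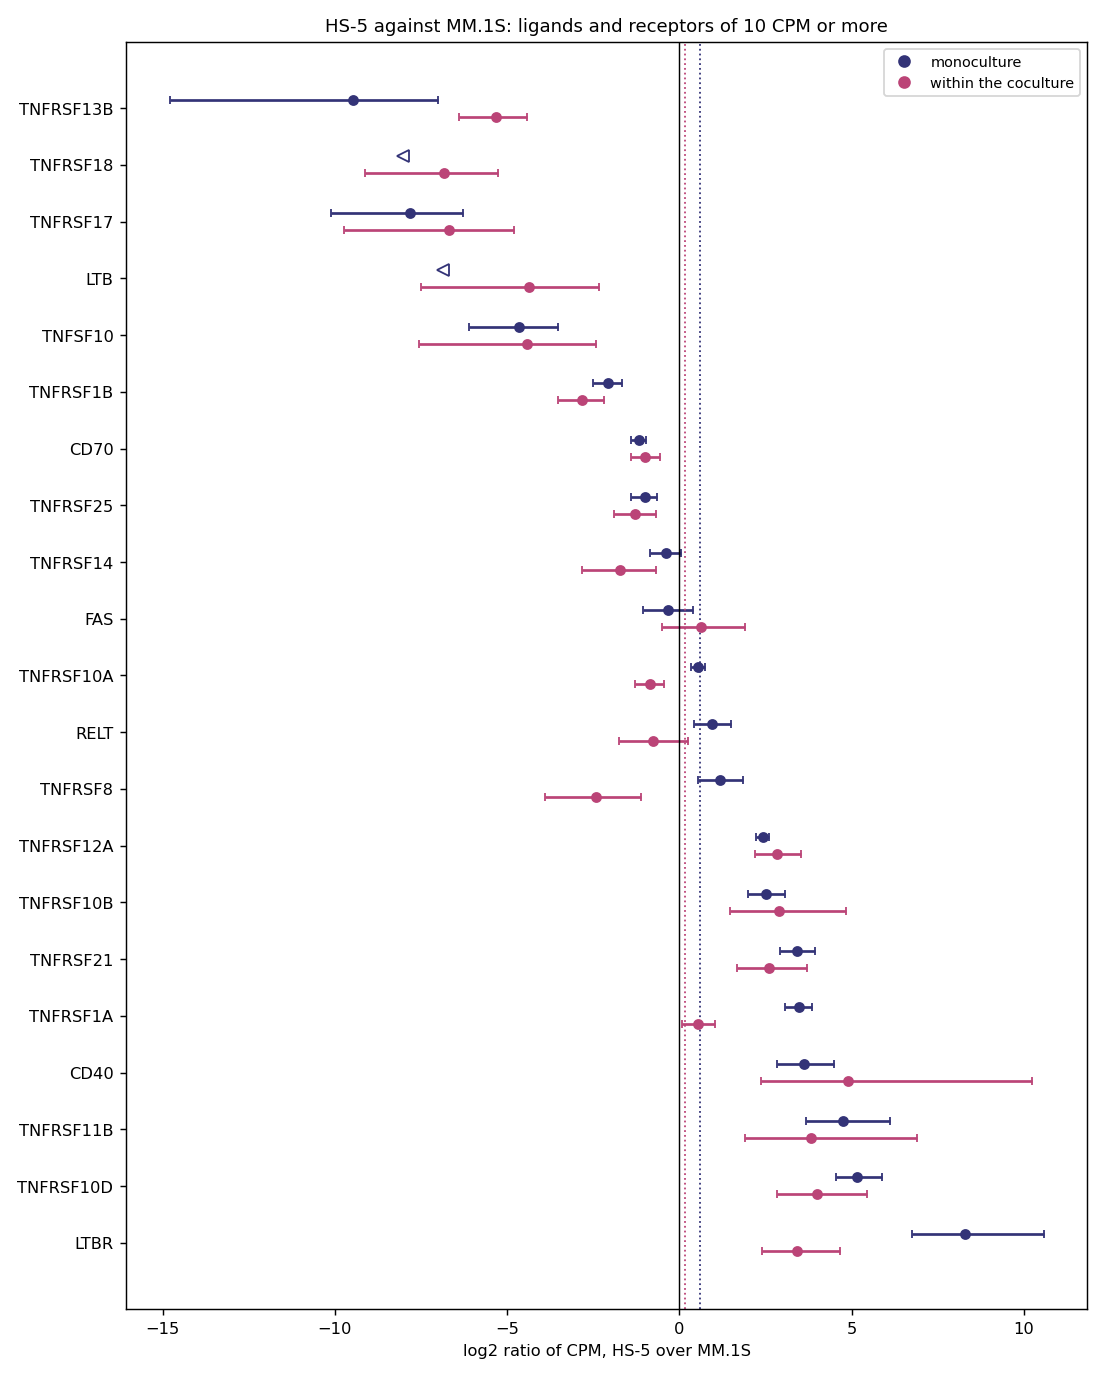
Log2 ratio of CPM, HS-5 over MM.1S, for the ligands and receptors with at least 10 CPM in a population, in monoculture and within the coculture. Bars are exact 95% intervals of the ratio from counting error, open triangles are bounds for genes with 0 UMIs in HS-5 monoculture, and dotted lines are the medians of all genes. TNFRSF1A has a ratio of 3.46 in monoculture and 0.54 within the coculture.

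Cells of each line from the coculture were then set against the same line alone, to see how levels differed after 4 h beside the other line. In MM.1S cells, TNFRSF1A was 6.26-fold higher in coculture than in monoculture (4.25 to 9.19) and LTB was 3.40-fold lower (2.22 to 5.47). Over all cells, no other of the 10 genes with a mean of 10 CPM or more differed by 2-fold. TNFRSF1B was 1.902-fold higher (1.51 to 2.37) and TNFRSF13B 1.37-fold higher (1.18 to 1.59), while TNFRSF12A was 1.71-fold lower (1.11 to 2.77) and TNFSF10 1.42-fold lower (0.927 to 2.28), the last with an interval that includes no difference. In cells of at least 1000 UMIs, TNFRSF1B, TNFRSF12A and TNFSF10 also just reached 2-fold, in the same directions. Among all genes, 19.9% were 2-fold or more higher and 6.19% lower in MM.1S cells in coculture, and of the 6 genes here with a mean of 10 CPM or more, 1 was higher and 1 lower. The cells in coculture also had a lower median share of mitochondrial UMIs, 3.62% against 6.24%, and the part of this and of their lower depth in the ratios was not tested. TNFSF13B, TNFSF13, TNFRSF10B and TNFRSF11B had 0 to 4 UMIs in these cells, and no difference could be seen at that depth.

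HS-5 is a source of TNFRSF1A transcripts, so the RNA that leaks from HS-5 cells into droplets of MM.1S cells was estimated from the HS-5-specific genes. This free RNA was estimated at 1.71% of all UMIs in these cells, which gives 0.958 CPM of TNFRSF1A against the 38.4 CPM measured. The same genes set the split and its limits, so cells with much HS-5 RNA were left out before the estimate. The part of HS-5 RNA in the TNFRSF1A ratio was not tested. The 51 UMIs were spread over 49 cells, at most 2 in any cell. In cells of at least 1000 UMIs, each thinned to 1000 UMIs, a TNFRSF1A UMI was present in 0.594% of 3870 MM.1S monoculture cells (0.377 to 0.890%, exact Clopper-Pearson) and in 3.17% of 378 coculture cells (1.65 to 5.48%). HS-5 cells had 7.60% (6.42 to 8.92%) and 5.29% (3.99 to 6.86%). Without thinning, the shares in MM.1S were 1.52% and 2.99%. The log2 ratio of TNFRSF1A in MM.1S was 2.18 when only cells of at least 1000 UMIs were used and 2.53 with MM.1S cells limited to an HS-5 share under 0.05.

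LTB UMIs were present in 4.86% of thinned MM.1S monoculture cells (4.20 to 5.58%) and in 1.32% of those in coculture (0.431 to 3.06%), against none of 1802 HS-5 monoculture cells, which allows up to 0.166% by a count of 3 cells. TNFRSF1B went from 3.59% (3.03 to 4.23%) to 7.41% (4.98 to 10.5%), against 1.22% in HS-5 monoculture. For TNFRSF13B the thinned share was 11.1% (10.2 to 12.2%) in monoculture and 15.1% (11.6 to 19.1%) in coculture, with overlapping intervals, while without thinning the shares were 24.5% and 12.1%, an order that follows the depth per cell. TNFSF10 had 2.71% (2.22 to 3.28%) and 0.529% (0.0641 to 1.898%, 2 cells). These 2 intervals do not overlap, whereas the interval of its CPM ratio over all cells included no difference. The thinned coculture shares rest on the 378 deepest of 1641 cells.

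In HS-5 cells, none of the 4 genes with a mean of 10 CPM or more differed by 2-fold, in a comparison where 1.43% of all genes were 2-fold or more higher and 2.11% lower. TNFRSF12A was 1.29-fold lower in coculture (1.13 to 1.48), and this reached no difference when each cell was given equal weight, with a log2 ratio of 0.05. TNFRSF1A was 1.21-fold lower (0.995 to 1.48), TNFRSF11B 1.17-fold higher (0.827 to 1.64) and TNFRSF10B 1.03-fold higher (0.742 to 1.42), all with intervals that include no difference. LTBR was 1.40-fold lower (1.17 to 1.67). Both coculture comparisons draw on the same coculture library.

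**Figure D3:**
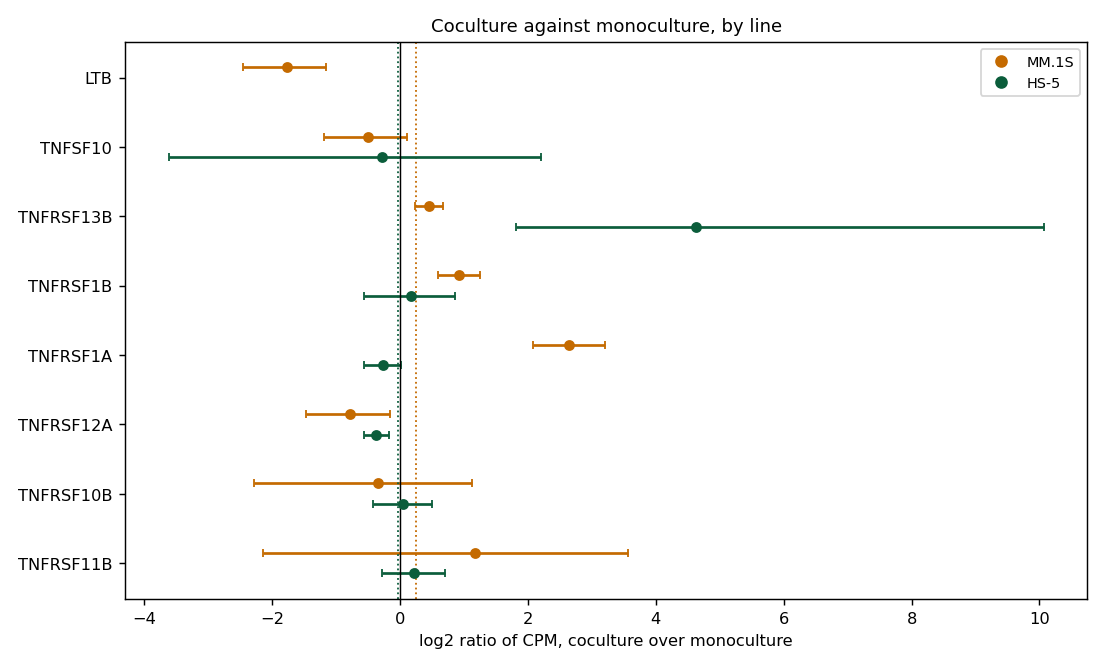
Log2 ratio of CPM, coculture over monoculture, in MM.1S and in HS-5 cells. Bars are exact 95% intervals from counting error and dotted lines the medians of all genes, at 0.25 and -0.03. TNFRSF1A at 2.65 and LTB at -1.77 stand out in MM.1S, LTB is not drawn for HS-5 because both levels are at or under 3 UMIs, and TNFRSF13B in HS-5 rests on 1 and 10 UMIs.

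Within a line, the genes were compared between cells with many UMIs of a gene list and the other cells, the limit being the 90th percentile of the thinned list counts in that line's monoculture. In MM.1S monoculture 315 cells had more than 5 UMIs of 29 interferon response genes, and 208 cells lay at that limit or 1 above it. The 315 cells were shallower, with a median of 1847 UMIs against 2271 in the other cells. TNFSF10 had 68.1 CPM in these interferon-high cells (47 UMIs) and 21.5 CPM in the other 3555 cells (208 UMIs), a 3.17-fold difference (2.26 to 4.36). It had a UMI in 38 of the 315 cells and in 196 of the 3555. TNFSF13B had 8.69 CPM in the interferon-high cells (3.19 to 18.9) and 1.14 CPM in the others (0.568 to 2.04), from 6 UMIs in 6 cells and 11 UMIs, a ratio of 7.64 (2.32 to 22.5). Outside the list, 3.61% of all genes whose mean was 10 CPM or more were 2-fold or more higher in these cells. TNFSF13B was under that minimum, so this share does not cover it. TNFSF10 is itself known as an interferon-induced gene and was not in the list.

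LTB had 114 CPM in interferon-high cells and 52.3 CPM in the others, a 2.19-fold difference (1.70 to 2.78), but 37 of the 79 UMIs came from 1 cell. Without that cell, which held 2729 UMIs in all, LTB had 61.1 CPM in interferon-high cells (44.0 to 82.6) and a ratio of 1.17 (0.831 to 1.601). Leaving out the cell with the most UMIs left TNFSF10 at 2.97 (2.09 to 4.13) and TNFSF13B at 10.5 (3.005 to 34.5). TNFRSF13B had 123 and 116 CPM and TNFRSF1B 24.6 and 40.4 CPM, the latter 0.609 of the other cells (0.351 to 0.988), and without 1 cell of the other group that interval reached no difference. TNFRSF12A had 18.8 and 29.2 CPM (0.646, 0.340 to 1.12), and 0.400 (0.171 to 0.799) without an interferon-high cell that held 5 of its 13 UMIs.

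**Figure D4:**
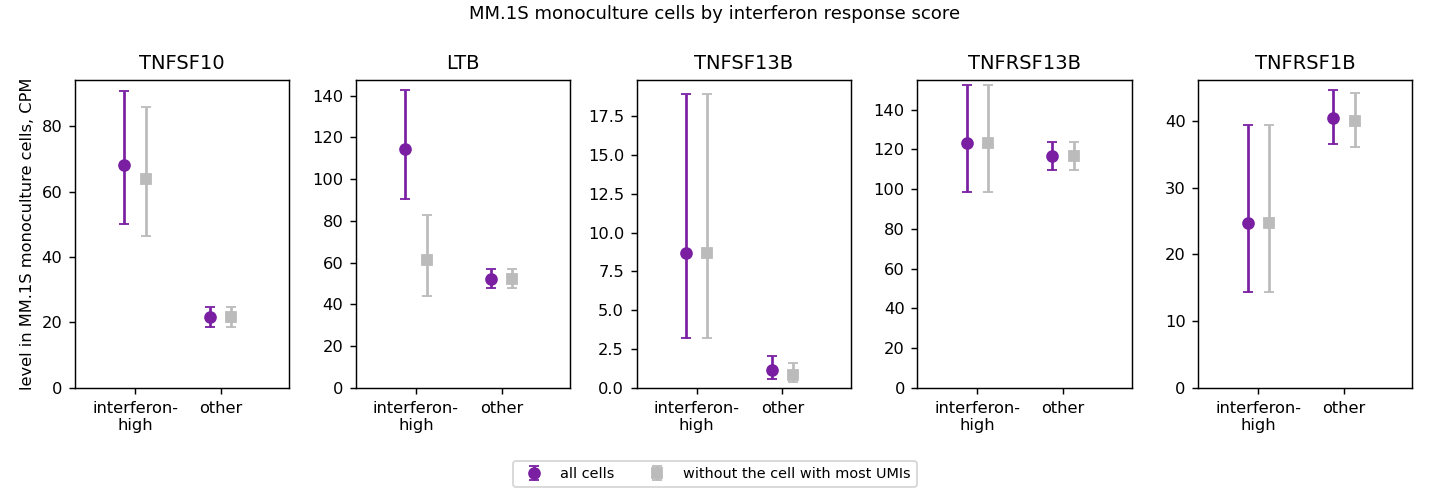
Level in CPM of 5 genes in 315 interferon-high and 3555 other MM.1S monoculture cells of at least 1000 UMIs, with all cells and without the single cell holding the most UMIs of the gene. Bars are exact 95% Poisson intervals and each panel has its own axis from 0. TNFSF10 stays at 63.8 CPM without 1 cell, whereas LTB goes from 114 to 61.1 CPM.

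HS-5 cells high for inflammatory cytokine and NF-κB genes (157 in monoculture, more than 17 UMIs of 18 genes) had 41.1 CPM of TNFRSF10B against 21.1 CPM in the others (1.95-fold, 1.09 to 3.29) and 208 CPM of TNFRSF12A against 163 CPM (1.27-fold, 1.01 to 1.59), where 3.44% of all genes were 2-fold or more higher. In coculture the same groups had 44.8 and 17.9 CPM of TNFRSF10B (2.502-fold, 0.925 to 5.84, 7 UMIs in the high cells). They had 160.2 and 108 CPM of TNFRSF12A (1.48-fold, 0.933 to 2.26). Both coculture intervals include no difference, and 8.71% of all genes were 2-fold or more higher there. TNFRSF1A had 62.8 and 66.1 CPM in monoculture (0.951, 0.611 to 1.42), an interval that includes no difference. Among MM.1S monoculture cells high for mitosis genes, LTB had 39.7 CPM against 58.6 CPM in the others (0.678, 0.492 to 0.914), and the 37-UMI cell was among the others. None of the members with a mean of 10 CPM or more was 2-fold or more higher in mitosis-high cells, where 2.44% of all genes were. TNFRSF13B had 105.7 and 118 CPM there. The mitosis-high cells were deeper, with a median of 3223 UMIs against 2175.5.

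The same lists gave 4 further groups of at least 50 high cells, in each of which every interval for the members with a mean of 10 CPM or more included no difference. These were interferon-high HS-5 cells of both cultures (in monoculture and coculture, 9.16% and 10.3% of all genes 2-fold or more higher), mitosis-high HS-5 cells in monoculture (5.12%) and MM.1S monoculture cells high for inflammatory genes (5.73%). TNFRSF12A, for example, had 196 and 166 CPM in interferon-high and other HS-5 monoculture cells. Groups of fewer than 50 high cells, among them the 22 interferon-high MM.1S cells in coculture, were not compared.

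The intracellular partners were counted from a list of 20 genes. In MM.1S cells in coculture, 3 of 14 with a mean of 10 CPM or more were 2-fold or more higher than in monoculture and none lower, in a comparison where 19.9% of all genes were higher to that degree. They were CHUK and IKBKB, the kinases of the IκB kinase complex, at 2.69-fold (1.79 to 3.97) and 2.34-fold (1.48 to 3.60), and the adaptor TRAF2 at 2.06-fold (1.44 to 2.88). The list's median log2 ratio was 0.54 beside 0.25 over all genes. Between the lines in monoculture, TRAF3, the adaptor that holds back non-canonical NF-κB signalling, had 32.9 CPM in HS-5 and 6.61 CPM in MM.1S (4.97-fold, 3.77 to 6.63), and CHUK was 2.67-fold higher in HS-5. The death domain adaptor TRADD was 6.52-fold higher in MM.1S (4.96 to 8.70), the initiator caspases CASP10 and CASP8 9.42-fold and 2.81-fold, and TRAF5 2.77-fold. Within the coculture BIRC3, an inhibitor of apoptosis, was 2.83-fold higher in MM.1S (1.91 to 4.22). TRADD, CASP10 and CASP8 were also higher in MM.1S there, 3.28-fold, 7.96-fold and 2.04-fold. TRAF3 was again higher in HS-5, with 30.2 CPM against 1.51 CPM in MM.1S (2 UMIs). CHUK was 1.28-fold higher in HS-5 (0.855 to 1.94) and TRAF5 1.29-fold higher in MM.1S (0.777 to 2.13). Both of these intervals include no difference.

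Of 7 processing and shedding genes, FURIN, the protease that cleaves BAFF and APRIL, had 20.2 CPM in HS-5 and 1.73 CPM in MM.1S monoculture (11.7-fold, 7.11 to 20.4). ADAM10, a sheddase of TACI, was 2.88-fold higher in MM.1S in monoculture (2.59 to 3.22). APH1A, a γ-secretase subunit, was 2.003-fold higher in HS-5 in monoculture (1.75 to 2.29). PSENEN, another subunit, was 2.40-fold lower in MM.1S cells in coculture than in monoculture (1.72 to 3.46). Within the coculture, HS-5 and MM.1S had 11.7 and 2.26 CPM of FURIN and 74.8 and 124 CPM of ADAM10. APH1A had 58.7 and 73.1 CPM there, the other way from monoculture. PSENEN had 69.2 CPM in HS-5 and 27.1 CPM in MM.1S in coculture, against 36.8 and 65.2 CPM in the monocultures. In HS-5, none of the signalling or processing genes tested differed by 2-fold between coculture and monoculture.

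Genes with the most similar levels over the 4 populations, by Euclidean distance in log2(CPM + 1) among 10546 genes, were OCIAD2, JSRP1 and MAGEA1 for TNFRSF13B, and CD37, AC245054.1 and AC243960.1 for LTB. CD37 had 49.2 and 25.6 CPM in MM.1S monoculture and coculture. For TNFRSF1A they were PXDN, MFSD14B and UPF1, which had 6.71, 6.61 and 8.05 CPM in MM.1S monoculture and 32.4, 30.9 and 36.9 CPM in MM.1S in coculture. TNFRSF1B was nearest to PIP4K2A, CXXC5 and HIVEP3, and TNFRSF12A to SDCCAG8, DDX50 and SCOC. Likeness over 4 populations of 3 libraries is a description only.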

How the data were processed

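For 3 Drop-seq libraries, the authors deposited unnormalized UMI counts of each gene in each barcode. Processing notes of the submitters name the builds GRCh38 and hg38, Cell Ranger 3.0.2, UMI-tools 1.0.0, STAR 2.5.3a, featureCounts 1.6.4 and SAMtools 1.9, and the study's methods name Seurat v2.4. The files held 3865 to 3994 barcodes and 3981392 to 10433182 UMIs, and a gene with no row was taken as 0.

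The minimum was 200 genes per cell. The split used 78 genes of MM.1S and 230 of HS-5, each with at least 50 CPM in its line's monoculture and 50-fold lower in the other. An HS-5 share under 0.2 marked MM.1S cells, one over 0.8 HS-5 cells, and the rest were left out as doublets. No doublet caller was run. Ratios are of CPM without a pseudocount, with exact conditional binomial intervals, and genes 2-fold apart with a mean of 10 CPM or more were counted. A level of 0 was read as up to 3 UMIs. Scripts used python 3.11.15, numpy 2.4.6, scipy 1.17.1 and pandas 2.3.3, and the steps were tested on simulated data. All members, other ligands and receptors with at least 10 CPM in a population, signalling and processing genes 2-fold apart (at most 5 per direction) and the 3 nearest genes of members with at least 50 CPM are named, except for 1 gene that is not reported here. Members and lists were chosen with earlier results of these data known. In groups above a list limit, 50 cells or more were asked for, a number set after seeing the group sizes. Alternatives were other limits on cells, split, levels, scaling, thinning and pseudocounts. A group of 5 was chosen after seeing the data: the limits 0.05 and 0.95, cells of at least 1000 UMIs, barcodes not shared between libraries, and, for levels and for list-high cells, leaving out the cell with the most UMIs of a gene.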

Additional observations from a re-analysis of the deposited data

Results flagged for a closer look

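For 3 receptors the coculture over monoculture ratios were of opposite sign in MM.1S and HS-5, each with a counting interval that leaves out equal levels. The log2 ratios were 4.39 and -0.48 for LTBR, 2.05 and -1.56 for TNFRSF8, and 0.79 and -0.61 for TNFRSF10A, in MM.1S and HS-5 respectively. The difference between lines was not tested, since each condition is 1 library. LTBR in MM.1S, and TNFRSF8 in both lines, had a mean under the 10 CPM used elsewhere. LTBR in MM.1S rests on 3 UMIs in monoculture and 8 in coculture, where the level expected from free RNA of HS-5 was 1.11 of 6.03 CPM. The 8 UMIs lay in 2 cells, and without the cell that held 5 of them 3 UMIs remained, the count of the monoculture, at 2.26 CPM. The alternative without the cell with the most UMIs was chosen after seeing the data.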

How the results depend on the processing

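Among the 10 genes, 457 of 484 ratios under other settings stayed inside the counting interval. None that was 2-fold or more, with an interval that leaves out equal levels, changed sign. All these settings reuse the same 3 libraries, and a pseudocount cannot change a sign. For TNFRSF1A in MM.1S, the log2 ratio of coculture to monoculture ran from 1.96 with a pseudocount of 5 CPM to 3.29 with cells of 200 to 2500 genes and under 5% mitochondrial UMIs. Of the shares of cells, 35 of 80 left their interval with other depths, and of list-high ratios 4 of 135. Ligands and receptors 2-fold or more apart changed in number as follows. Higher in MM.1S in coculture there was 1 gene, but 3 with those limits on genes and mitochondrial UMIs together, 0 with a mean of 50 CPM, 10 with no minimum level, 4 with the limits 0.05 and 0.95 and 2 with cells of at least 1000 UMIs. Lower there was 1, but 2 with at least 500 genes, 2 with centred ratios, 0 with a mean of 50 CPM and 3 with at least 1000 UMIs. HS-5 against MM.1S in monoculture gave 6 higher and 8 lower, but 1 and 4 with a mean of 50 CPM and 16 higher with no minimum. Within the coculture 7 higher and 6 lower became 1 and 2 with a mean of 50 CPM, and 12 lower with no minimum. In HS-5, 0 and 0 became 5 and 5 with no minimum. Fewer or more genes enter with other minimum levels, and for the other settings the cause was not tested. No paired analysis was possible because each group is 1 library. In MM.1S cells in coculture, 3 UMIs are worth 2.26 CPM, and levels near or under it rest on 1 to 3 UMIs.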
